A study of Mus musculus with 24 samples.

Results

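The genes described here encode components of T-cell receptor signalling: the CD3 subunits *Cd3g*, *Cd3d*, *Cd3e* and *Cd247*, the kinases *Lck*, *Fyn* and *Zap70*, the membrane adaptor *Lat* and the pre-T-cell receptor chain *Ptcra*. They were chosen by symbol, and all 9 were found among the 55487 genes listed in both experiments. Each group consisted of 3 libraries, 24 in all, prepared from Cas9-LP cells, which are lymphoid progenitor lines derived from fetal liver progenitors; the mice were Ebf1-deficient;Rosa26-Cas9 knock-in animals, so all groups, controls included, lack *Ebf1* and carry Cas9. LPs were grown on OP9 stromal cells with SCF, Flt3L and IL-7. Phase 1 cells had spent 2 days on OP9-DLL4, which presents a Notch ligand, under otherwise the same culture conditions. Cells received a retrovirus carrying guide RNAs and an hNGFR marker, and hNGFR+CD45+ cells were sorted 5 days later. The first experiment held LPs and Phase 1 cells with sgControl (guides to luciferase) or sgCbfb (guides to *Cbfb*, the shared partner of the RUNX proteins). The second held LPs with sgControl, sgCbfb, sgCTCF or sgMed12. Guides to a gene were pooled, so each knockout group is a mixed population, and neither the number of lines used nor their clonality is stated in the sources used here.

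The T-cell receptor has no enzymatic tail of its own. Its CD3 and zeta chains carry tyrosine motifs that the Src-family kinases LCK and FYN phosphorylate, ZAP70 docks on the phosphorylated motifs, and ZAP70 then phosphorylates LAT, on which the downstream signalling complex assembles. Before a complete receptor exists, thymocytes place the TCR beta chain beside pTalpha, the product of *Ptcra*, and use the same CD3 chains and kinases.

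RNA was read from its 3′ end by QuantSeq, and levels are given as CPM, that is, reads of a gene per 1000000 reads counted on genes. The first experiment held 1363263 to 1743319 reads per library and the second 3354484 to 4326784, so the smallest level that 3 reads give was 1.72 to 2.20 CPM and 0.693 to 0.894 CPM, respectively. The third Phase 1 sgControl library stood apart from its group (mean correlation 0.888, against 0.920 and 0.923 for the other two), and in the second experiment the second sgMed12 library had the lowest such value (0.957). Of the targeted genes, *Cbfb* fell in LPs of both experiments (log2 fold change -1.09, adjusted P = 0.00548, and -1.23, adjusted P = 4.3e-06), and its change in Phase 1 cells did not pass (-0.27, adjusted P = 0.591). *Ctcf* fell by 0.36 on the log2 scale with sgCTCF (adjusted P = 0.021), and *Med12* mRNA was not lower with sgMed12 (log2 fold change 0.30, adjusted P = 0.663). *Med12* was low, at 3.20 to 9.61 CPM with sgMed12 and 4.38 to 6.59 CPM with sgControl. The study reports depletion of the CBFβ, CTCF and MED12 proteins in LPs by immunoblot, and mRNA levels do not measure protein. Lymphoid progenitor markers were present in all groups, and all 7 of 7 markers of Notch-stimulated progenitors were called higher in Phase 1 sgControl cells than in LPs. Differences were tested with limma on log2(CPM + 1) with Benjamini-Hochberg adjustment over all genes tested, and a gene was called changed at adjusted P under 0.05, group means that differed by more than 1 on the log2 scale and over 10 CPM on average in 1 of the groups or both. With 3 libraries against 3, an exact permutation test of a single gene cannot give a P value under 0.1, so it decided no call.

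The CD3 genes and *Lck* rose from the LP to the Phase 1 stage in sgControl cells. *Cd3g*, which encodes the gamma chain of CD3, was at 0.59, 0 and 0.642 CPM in the 3 LP libraries and at 57.9, 40.6 and 33.7 CPM in the Phase 1 libraries. The groups lay far apart. Only 2 reads lay behind the LP values, so the ratio of pooled counts, 107, had a 95% exact interval of 29.3 to 893, which covers counting error only; the log2 fold change was 5.00 ± 0.54 (SE, adjusted P = 1.3e-06). *Cd3d*, encoding the delta chain, was at 5.90, 3.71 and 4.50 CPM in LPs and at 16.2, 16.8 and 22.7 CPM in Phase 1 cells. Every Phase 1 library was above every LP library, by 3.95-fold in the means (log2 fold change 1.78 ± 0.50, adjusted P = 0.0349). That call was lost when any 1 of the 6 libraries was left out (adjusted P 0.0546 to 0.122).

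*Cd3e*, encoding the epsilon chain, had 1 read in each LP sgControl library, and 9.88, 3.23 and 6.60 CPM in Phase 1. It rose by the test (log2 fold change 2.12 ± 0.54, adjusted P = 0.0179) while remaining under the level threshold, and the edgeR count test did not pass it (adjusted P = 0.0664). Leaving out any library of the 2 groups but the second Phase 1 one also ended it (adjusted P 0.0528 to 0.0793). *Cd247*, which encodes the zeta chain, was at 5.31, 4.33 and 5.78 CPM in LPs and at 52.9, 47.7 and 21.3 CPM in Phase 1 cells. All 3 Phase 1 values were above the LP values, and the lowest came from the library that stood apart (7.91-fold, log2 fold change 2.67 ± 0.54, adjusted P = 0.00265). The exons of *Cd247* overlap those of *Pou2f1* on the opposite strand by 3007 bases, and the strand setting of the counting is not given in the sources used here. *Pou2f1* was at 124 to 151 CPM in LPs and at 27.9 to 130 CPM in Phase 1 cells (74.1 ± 51.7, SD, n = 3). These ranges overlapped, with a wide Phase 1 spread (log2 fold change -1.13, adjusted P = 0.0426). The part of reads from the shared bases in the *Cd247* level was not tested.

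*Lck* was at 123, 133 and 107 CPM in LPs and at 298, 250 and 286 CPM in Phase 1 cells, a 2.30-fold rise without overlap (log2 fold change 1.19 ± 0.22, adjusted P = 0.00131). *Fyn*, the related kinase, was at 76.1, 83.6 and 48.8 CPM in LPs and at 79.1, 99.4 and 80.0 CPM in Phase 1, and these overlapped (log2 fold change 0.33, adjusted P = 0.365). *Zap70*, the kinase that docks on CD3 chains, was at 6.49, 10.5 and 6.42 CPM in LPs and at 2.82, 1.29 and 0.733 CPM in Phase 1. It was thus lower in all 3 Phase 1 libraries, but the difference did not pass (log2 fold change -1.80, adjusted P = 0.0563). *Lat* was at 8.85, 10.5 and 6.42 CPM in LPs and at 21.2, 33.5 and 46.2 CPM in Phase 1, without overlap; limma did not pass it (log2 fold change 1.81 ± 0.55, adjusted P = 0.0543), and edgeR passed it (adjusted P = 0.00397). *Ptcra* had 7.76 and 9.03 CPM in 2 Phase 1 libraries and 0 reads in the third, the one that stood apart (log2 fold change 1.70, adjusted P = 0.168; 2.77, adjusted P = 0.00412, without that library). Thus 4 of the 9 genes were called higher, *Lck*, *Cd3g*, *Cd247* and *Cd3d*, and none lower; of all 13239 genes tested, 1.65% were called higher. The median log2 fold change of the 9 genes was 1.78, against -0.07 over all genes. Without the library that stood apart, 3 were called, *Cd3d* being lost. In bulk RNA, a change in the share of cells that express a gene and a change in RNA per cell cannot be told apart.

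**Figure D1:**
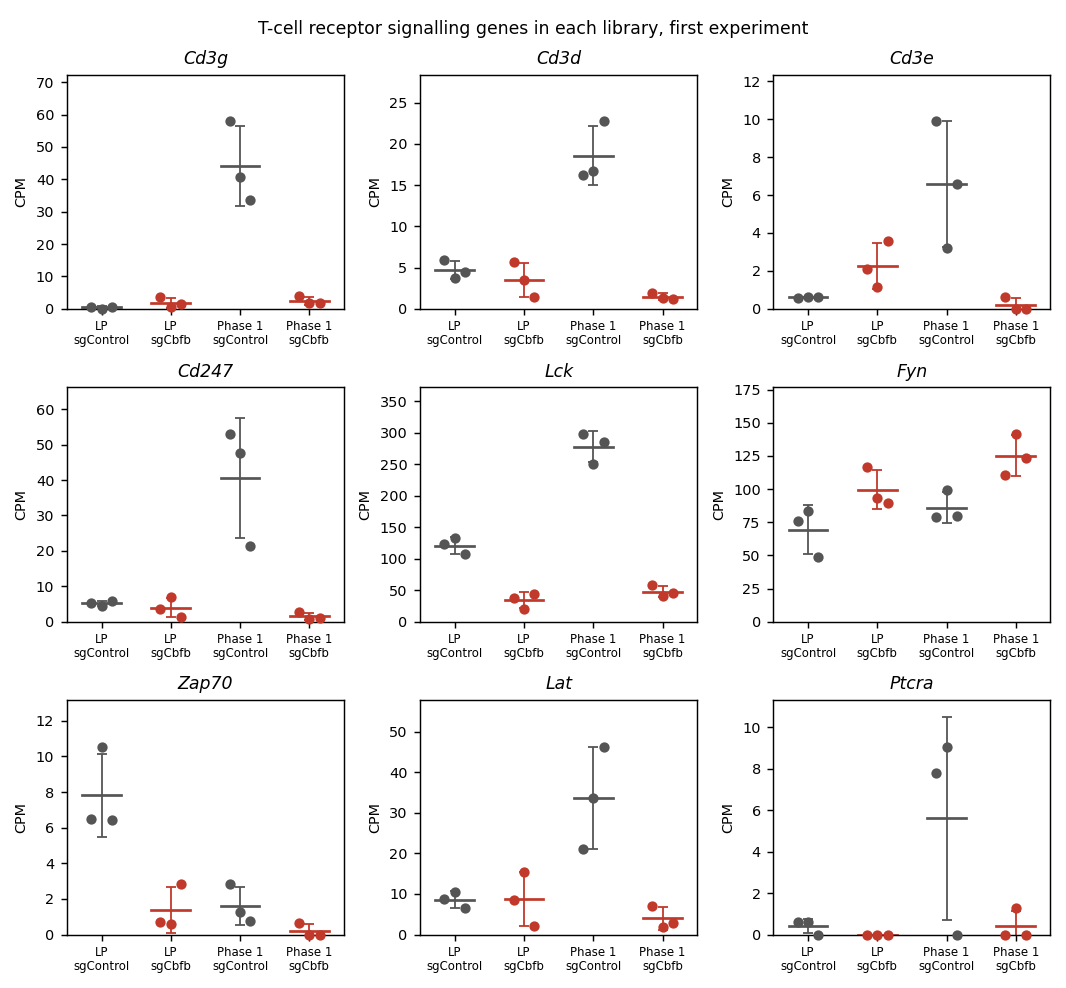
Levels in CPM (y axis, linear, a scale of its own for each gene) of the 9 genes in the 4 groups of the first experiment (x axis); points are libraries, the horizontal bar is the mean and the error bar the SD of 3 libraries. Phase 1 sgControl cells held the highest *Cd3g*, *Cd3d*, *Cd247*, *Lck* and *Lat* values, and with sgCbfb the Phase 1 values of these 5 genes were lower in every library.

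In Phase 1 cells, the sgCbfb guides were followed by lower levels of CD3 subunits, *Lck* and *Lat*. *Cd3g* was at 3.89, 1.89 and 1.77 CPM with sgCbfb, every value far under the sgControl values above (17.5-fold, log2 fold change -3.70 ± 0.54, adjusted P = 9.7e-05). *Cd3d* was at 1.94, 1.26 and 1.18 CPM, from 7 reads in all, and fell by 2.99 ± 0.50 on the log2 scale (adjusted P = 0.00046; ratio of pooled counts 12.8, 5.91 to 32.7). The single *Cd3e* read in the 3 sgCbfb libraries stood against 28 in sgControl (log2 fold change -2.58 ± 0.54, adjusted P = 0.00423; ratio 31.2, 5.16 to 1277), again without reaching the level threshold. *Cd247* was at 2.59, 0.628 and 1.18 CPM and fell by 4.06 ± 0.54 (adjusted P = 3.5e-05; ratio 28.4, 13.5 to 71.6). *Pou2f1*, its overlapping neighbour, did not pass (log2 fold change 0.86, adjusted P = 0.15).

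*Lck* remained detectable, at 57.7, 40.2 and 44.8 CPM with sgCbfb, yet every library was far under the sgControl range (5.85-fold, log2 fold change -2.53 ± 0.22, adjusted P = 9.7e-08). *Lat* was at 7.13, 1.89 and 2.95 CPM (8.44-fold lower, log2 fold change -2.87 ± 0.55, adjusted P = 0.00184). *Fyn* was instead at 111, 141 and 123 CPM, with each library above each sgControl library, but the difference did not pass (log2 fold change 0.53, adjusted P = 0.124). *Zap70* had 1 read with sgCbfb and 7 with sgControl (adjusted P = 0.331), and *Ptcra* 2 and 25 reads (adjusted P = 0.169; 0.00332 without the library that stood apart). In all, 5 of 9 genes were called lower, namely *Lck*, *Cd3g*, *Cd247*, *Lat* and *Cd3d*, and none higher, where 1.56% of all genes tested were called lower. The median log2 fold change was -2.58 over the 9 genes and 0.06 over all genes. The same 5 were called without the library that stood apart and by edgeR.

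Markers of the stages and of other cells were read beside these genes, and moved in both directions. The 7 markers of Notch-stimulated progenitors summed to 1346 to 1504 CPM in Phase 1 sgControl libraries and to 947 to 1037 CPM with sgCbfb. Of these, 3 were called lower and 0 higher, with a median log2 fold change of -1.43. Of 8 lymphoid progenitor markers, 1 was called lower and 4 higher, where 1.56% and 1.96% of all genes tested were. The 8 NK or innate lymphoid markers summed to 2766 to 3572 CPM in Phase 1 sgControl libraries, mostly *Gzma*, and to 258 to 342 CPM with sgCbfb, whereas *Ncr1* and *Eomes* had no reads in either group. The 10 markers of committed or mature T cells summed to 1136 to 1273 CPM with sgControl and to 717 to 776 CPM with sgCbfb. They did not move as 1: of 7 tested, 2 were called lower and 1 higher, with a median log2 fold change of 0.11. *Bcl11b*, a transcription factor of T-lineage commitment, fell from 356 to 489 CPM with sgControl to 35.2 to 38.9 CPM (range of 3 libraries each; limma log2 fold change -3.50, adjusted P = 3.9e-09), as did the receptor constant segment *Trbc1* (166 to 44.1 CPM, -1.90, adjusted P = 0.00156). *Cd28* rose (14.9 to 56.1 CPM, 1.83, adjusted P = 0.00077), and *Trbc2* was at 551 and 592 CPM. The part of these stages and populations in the values of the receptor genes was not tested.

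In LPs of the first experiment, only *Lck* of the 9 genes passed the test against sgControl with the sgCbfb guides, and it fell. *Lck* was at 38.1, 20.1 and 44.2 CPM against 123, 133 and 107 CPM with sgControl, without overlap (3.55-fold, log2 fold change -1.86 ± 0.22, adjusted P = 1.4e-05). *Zap70* was at 0.705, 0.573 and 2.85 CPM, from 6 reads against 38, and did not pass (log2 fold change -1.98 ± 0.55, adjusted P = 0.0579). *Fyn* was at 116, 93.5 and 89.2 CPM, each above each sgControl value (log2 fold change 0.54, adjusted P = 0.189). *Lat* (8.46, 15.5 and 2.14 CPM) and *Cd247* (3.53, 6.88 and 1.43 CPM) spread on both sides of the sgControl values, with adjusted P = 0.937 and 0.849. The remaining CD3 genes did not pass either: *Cd3d* was at 5.64, 3.44 and 1.43 CPM (adjusted P = 0.847), *Cd3g* had 8 reads against 2 (adjusted P = 0.584) and *Cd3e* 10 against 3 (adjusted P = 0.557). *Ptcra* had no read in the sgCbfb LPs and 2 in the sgControl LPs. The 1 gene of 9 called lower stands beside 0.597% of all genes called lower, and the medians were -0.44 for the 9 genes and 0 for all genes. The markers of committed or mature T cells summed to 144 to 162 CPM with sgControl and to 67.7 to 105 CPM with sgCbfb. Of 7 tested, *Bcl11b* was called lower (76.4 to 13.6 CPM, limma log2 fold change -2.49, adjusted P = 1.4e-06) and *Cd28* higher. The 7 markers of Notch-stimulated progenitors instead summed to 259 to 382 CPM with sgControl and to 458 to 479 CPM with sgCbfb. Of these, 1 was called higher and 0 lower, where 1.1% and 0.597% of all genes tested were. The part of either list in the *Lck* level was not tested.

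In LPs of the second experiment, *Lck* and *Lat* were called lower with sgCbfb and *Zap70* nearly vanished. *Lck* was at 99.2, 117 and 88.2 CPM with sgControl and at 5.37, 6.97 and 7.31 CPM with sgCbfb, a 15.5-fold gap between groups that were each tight (log2 fold change -3.76 ± 0.14, adjusted P = 4.4e-16). *Zap70* was at 9.23, 11.5 and 7.06 CPM with sgControl, and at 0, 0.268 and 0.251 CPM with sgCbfb. The sgCbfb values rest on 2 reads, giving a ratio of pooled counts of 50.5 (13.6 to 422); the gene fell by the test (log2 fold change -3.12 ± 0.30, adjusted P = 2e-08) and missed the call because its mean in sgControl was 9.27 CPM. *Lat* went from 23.2, 18.3 and 17.8 CPM to 5.66, 2.68 and 2.77 CPM. That was a 5.33-fold fall (limma log2 fold change -2.19 ± 0.23, adjusted P = 1.1e-07). The first experiment differed: in its LPs *Lat* had 42 reads with either guide, and *Cd3g* had 8 with sgCbfb against 2 with sgControl. Mean *Lck* in LPs with sgCbfb was 34.1 CPM in the first experiment and 6.55 CPM in the second. The experiments were not tested against each other.

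Among the CD3 subunits, *Cd247* was at 6.59, 3.54 and 3.17 CPM with sgControl and at 1.49, 1.88 and 0 CPM with sgCbfb, and fell under the level threshold (3.95-fold, log2 fold change -1.44 ± 0.37, adjusted P = 0.00827; 0.0723 without the first sgControl and 0.0832 without the third sgCbfb library). *Cd3g* had 18 reads with sgControl and none with sgCbfb, which is at least 1.99-fold lower against a floor of 3 reads per library (adjusted P = 0.0353, lost on leaving out any 1 of the 6 libraries, 0.0614 to 0.147). *Cd3d* was at 10 and 8 reads (adjusted P = 0.969). *Cd3e* had no read in any of the 12 libraries of the second experiment and *Ptcra* at most 3 in a library, so neither was tested there. *Fyn* moved the other way, from 86.0, 68.5 and 70.9 CPM to 131, 144 and 143 CPM, without overlap (1.86-fold, log2 fold change 0.89 ± 0.12, adjusted P = 7e-06); it rose by the test and missed the fold threshold. The calls were 2 of 7 genes lower, where 1.65% of all 13177 genes tested were. By adjusted P alone they were 5 lower and 1 higher, where 5.57% of all genes were lower and 6.91% higher. The median log2 fold change of the 7 genes was -1.44, against -0.01 over all genes. The markers of committed or mature T cells summed to 112 to 155 CPM with sgControl and to 45.9 to 56.6 CPM with sgCbfb. The 7 markers of Notch-stimulated progenitors instead summed to 177 to 241 CPM with sgControl and to 413 to 531 CPM with sgCbfb. Of 6 tested, 2 were called higher and 0 lower, where 2.67% and 1.65% of all genes tested were. The part of either list in the values of the receptor genes was not tested.

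**Figure D2:**
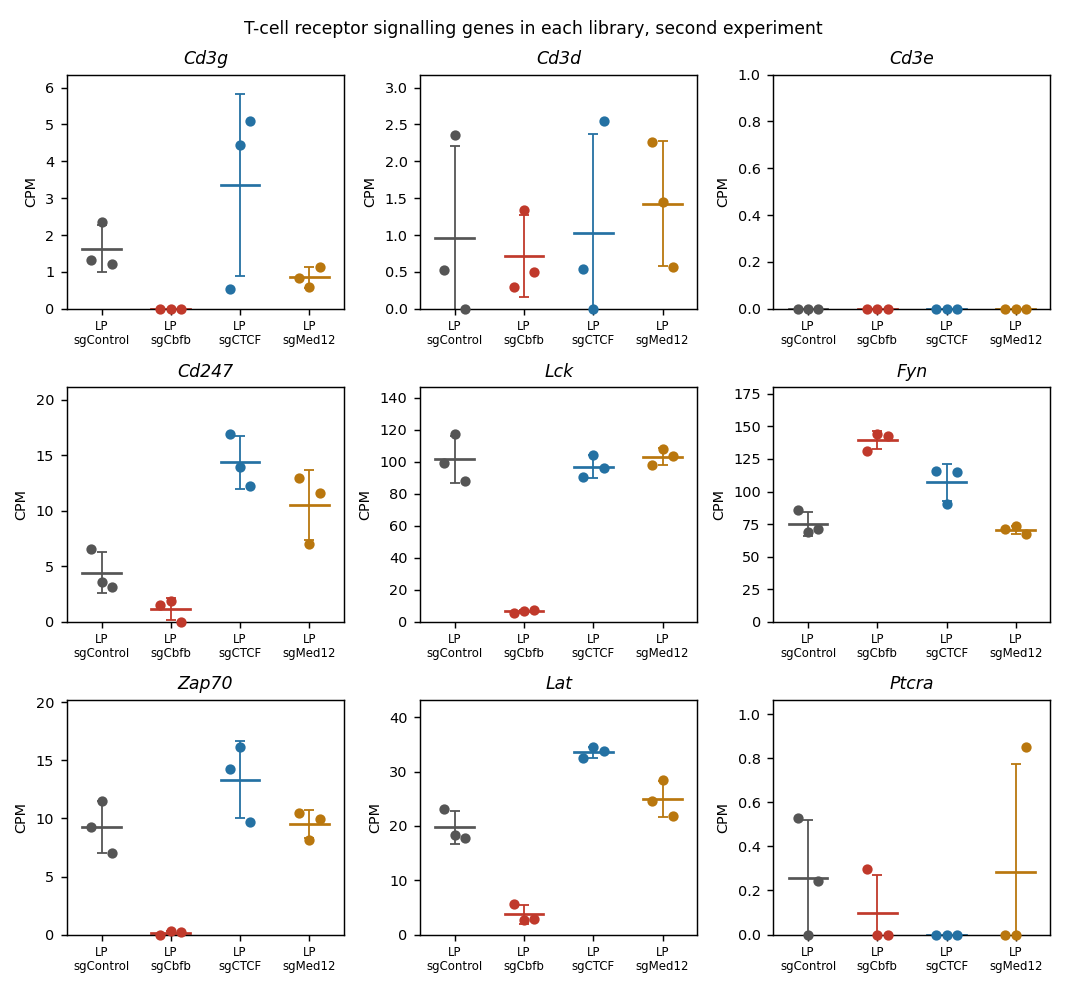
Levels in CPM (y axis, linear, a scale of its own for each gene) of the 9 genes in the 4 LP groups of the second experiment (x axis); points are libraries, the horizontal bar is the mean and the error bar the SD of 3 libraries. *Lck*, *Zap70* and *Lat* were lowest with sgCbfb and *Fyn* highest there, *Cd247* was highest with sgCTCF, and *Cd3e* had no reads.

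The promoter sequences of *Lck*, *Zap70* and *Lat*, which fell with sgCbfb in the second experiment, and of *Fyn*, which rose there, are given as RefSeq has them for GRCm38.p6, to show the letters around each start. Each stretch runs from 150 bases before the annotated start to 10 after it, on the strand of the gene. Capitals mark the RUNX core TGTGGT, searched on both strands (ACCACA on the other). *Lck* spans chr4:129573632-129573791 (minus strand), *Zap70* chr1:36764365-36764524 (plus strand, the second of its 3 annotated starts), *Lat* chr7:126369559-126369718 (minus strand) and *Fyn* chr10:39369649-39369808 (plus strand).
Lck: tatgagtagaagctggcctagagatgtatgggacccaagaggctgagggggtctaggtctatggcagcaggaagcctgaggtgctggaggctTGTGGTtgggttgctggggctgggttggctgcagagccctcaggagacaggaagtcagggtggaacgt
Zap70: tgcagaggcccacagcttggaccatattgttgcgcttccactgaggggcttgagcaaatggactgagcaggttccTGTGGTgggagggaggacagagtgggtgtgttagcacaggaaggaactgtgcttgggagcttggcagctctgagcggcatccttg
Lat: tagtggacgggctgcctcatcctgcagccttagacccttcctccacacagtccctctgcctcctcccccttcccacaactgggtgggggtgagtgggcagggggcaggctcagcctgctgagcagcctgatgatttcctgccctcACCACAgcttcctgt
Fyn: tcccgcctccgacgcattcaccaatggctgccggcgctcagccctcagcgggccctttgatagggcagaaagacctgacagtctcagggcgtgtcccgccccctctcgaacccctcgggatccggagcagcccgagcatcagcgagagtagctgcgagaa
The core lay at -58 in *Lck*, -75 in *Zap70* and -5 in *Lat*, counted from the start, and these letters were absent from the *Fyn* stretch. That stretch lies downstream of the first base of the whole *Fyn* locus (39368855), around which no window was searched. Which start the cells used was not tested. Of the starts of *Lck* and *Zap70*, those with the core are shown: the second annotated start of *Lck*, the other two of *Zap70* and the windows of *Cd3g*, *Cd3d*, *Cd3e*, *Cd247* and *Ptcra* lack it, and *Cd3g*, *Cd3d* and *Cd247* were called lower with sgCbfb in Phase 1 cells all the same. All 9 genes matched a RefSeq entry. In windows of 250 bases before to 50 after the start, it was present in 3 of 12 windows of the 9 genes and in 16.8% of all 32817 windows. The RBPJ core TGGGAA was in 6 of the 12 windows, against 25.6% of all, and the E-protein letters CAGGTG in 8, against 20.2%. These matches describe letters and show no binding.

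The whole *Lck* locus lies at chr4:129548344-129573641 on the minus strand, *Zap70* at chr1:36761798-36782818 and *Fyn* at chr10:39368855-39565381 on the plus strand, and *Lat* at chr7:126363824-126369570 on the minus strand (GRCm38). *Cd3g* (chr9:44969572-44980431, minus), *Cd3d* (chr9:44981786-44987339, plus) and *Cd3e* (chr9:44998740-45009627, minus) are neighbours, with *Cd3g* and *Cd3d* read away from each other and sharing no exon bases. *Cd247* lies at chr1:165788681-165877277 on the plus strand and *Ptcra* at chr17:46755663-46763712 on the minus strand. All 9 are protein-coding.

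Whether the sgCbfb guides had a different effect in the 2 stages was tested as an interaction within the first experiment, in which both effects rest on the values given above. The effect in Phase 1 was lower than that in LPs by 4.61 ± 0.76 on the log2 scale for *Cd3g* (adjusted P = 0.00175) and by 3.59 ± 0.76 for *Cd247* (adjusted P = 0.0157), and both were called. With 2 *Cd3g* reads and 3 *Cd3e* reads in the LP sgControl libraries, a fall in LPs could hardly show for either gene. *Cd3e* also passed (-3.53 ± 0.77, adjusted P = 0.0186) at levels under the threshold, but not in edgeR (adjusted P = 0.0579) nor without the second LP sgControl, the first Phase 1 sgControl, the third LP sgCbfb, the second Phase 1 sgCbfb or the third Phase 1 sgCbfb library (adjusted P 0.0532 to 0.0671). The *Cd247* call was lost without the second library of the LP sgControl, LP sgCbfb or Phase 1 sgCbfb group (adjusted P = 0.0509, 0.0567 and 0.0508) and with a pseudocount of 0.1 (adjusted P = 0.0596). *Cd3d* (-2.55, adjusted P = 0.0966) and *Lat* (-2.61, adjusted P = 0.138) did not pass in limma, and *Lat* did in edgeR (adjusted P = 0.0126). For *Lck* the difference was -0.67 (95% confidence interval -1.33 to -0.01, adjusted P = 0.475), and for *Fyn* -0.01 (-0.58 to 0.57, adjusted P = 0.997). *Zap70* (0.92, adjusted P = 0.754) and *Ptcra* (-1.31, adjusted P = 0.711) did not pass. The 2 of 9 genes called with a lower effect in Phase 1 stand beside 0.597% of all genes, and the medians were -2.55 and 0.06.

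Compared between stages within sgCbfb cells, the receptor genes showed no call. *Lck* was at 20.1 to 44.2 CPM in LPs and 40.2 to 57.7 CPM in Phase 1, which overlapped (log2 fold change 0.52, 95% confidence interval 0.06 to 0.99, adjusted P = 0.329). *Cd3g* was at 0.573 to 3.53 and 1.77 to 3.89 CPM (adjusted P = 0.866), and *Cd247* at 1.43 to 6.88 and 0.628 to 2.59 CPM (adjusted P = 0.546). *Cd3d* (log2 fold change -0.77, adjusted P = 0.605), *Cd3e* (-1.40, adjusted P = 0.255) and *Lat* (-0.80, adjusted P = 0.635) did not pass. Nor did *Fyn* (0.33, adjusted P = 0.557), *Zap70* (-0.88, adjusted P = 0.581) or *Ptcra* (0.39, adjusted P = 0.902). With limma 0 of 9 genes were called, 2 reached an unadjusted P under 0.05 (*Cd3e* lower and *Lck* higher), and edgeR called 0, where 1.19% of all genes were called in either direction. The median log2 fold change of the 9 genes was -0.77, against -0.01 over all genes.

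With sgCTCF, LPs held more *Cd247* than sgControl LPs. *Cd247* was at 16.9, 13.9 and 12.2 CPM, all above the sgControl values of 6.59, 3.54 and 3.17 CPM (3.24-fold, log2 fold change 1.54 ± 0.37, adjusted P = 0.00682; 0.145 with a pseudocount of 0.1), while *Pou2f1* did not pass (log2 fold change 0.08, adjusted P = 0.763). *Lat*, at 32.5, 34.5 and 33.7 CPM, rose 1.70-fold by the test (log2 fold change 0.74 ± 0.23, adjusted P = 0.0389), but leaving out any 1 of 5 libraries ended that (adjusted P 0.0993 to 0.147). *Fyn*, at 115, 90.5 and 115 CPM, rose 1.42-fold (log2 fold change 0.50 ± 0.12, adjusted P = 0.00814; 0.0608 and 0.0546 without the first and the third sgCTCF library). *Lck* was at 90.4, 104 and 96.1 CPM within the range of sgControl (log2 fold change -0.06, 95% confidence interval -0.35 to 0.24, adjusted P = 0.867). *Zap70* was at 14.2, 16.2 and 9.71 CPM (adjusted P = 0.372), and *Cd3g* ranged from 0.536 to 5.08 CPM (adjusted P = 0.532), both overlapping sgControl. *Cd3d* had 13 reads against 10 (adjusted P = 0.981). A single gene of 7, *Cd247*, was called higher, where 1.81% of all genes were, and 3 were higher by adjusted P alone, where 6.13% of all genes were. The medians were 0.50 for the 7 genes and -0.02 for all genes. The NK or innate lymphoid markers summed to 310 to 329 CPM with sgCTCF and to 159 to 202 CPM with sgControl, and 1 of 5 tested was called higher. The markers of Notch-stimulated progenitors summed to 254 to 268 CPM and to 177 to 241 CPM, and 2 of 6 tested were called higher. No marker of either list was called lower. The part of either list in the *Cd247* level was not tested.

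With sgMed12, no gene of the set was called against sgControl. *Cd247* was at 13.0, 6.97 and 11.6 CPM, all above sgControl, and did not pass (2.38-fold, log2 fold change 1.10 ± 0.37, adjusted P = 0.0672), but did without the second sgMed12 library (adjusted P = 0.0129). *Pou2f1* fell here (log2 fold change -0.57, adjusted P = 0.00839). *Lck* was at 97.8, 108 and 104 CPM (log2 fold change 0.03, 95% confidence interval -0.26 to 0.33, adjusted P = 0.92). *Zap70* (10.5, 8.14 and 9.93 CPM), *Lat* (24.6, 28.5 and 21.9 CPM) and *Fyn* (70.9, 73.2 and 67.6 CPM) overlapped sgControl, with adjusted P = 0.944, 0.423 and 0.736. *Cd3g* had 9 reads against 18 (adjusted P = 0.531) and *Cd3d* 15 against 10 (adjusted P = 0.637). With limma 0 of 7 genes were called, 1 had an unadjusted P under 0.05 (*Cd247*) and edgeR called 0, where 1.03% of all genes were called in either direction. The medians were 0.05 for the 7 genes and -0.02 for all genes. The NK or innate lymphoid markers summed to 115 to 148 CPM with sgMed12 and to 159 to 202 CPM with sgControl. Those of Notch-stimulated progenitors summed to 176 to 205 CPM and to 177 to 241 CPM. The part of either list in the *Cd247* level was not tested.

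**Figure D3:**
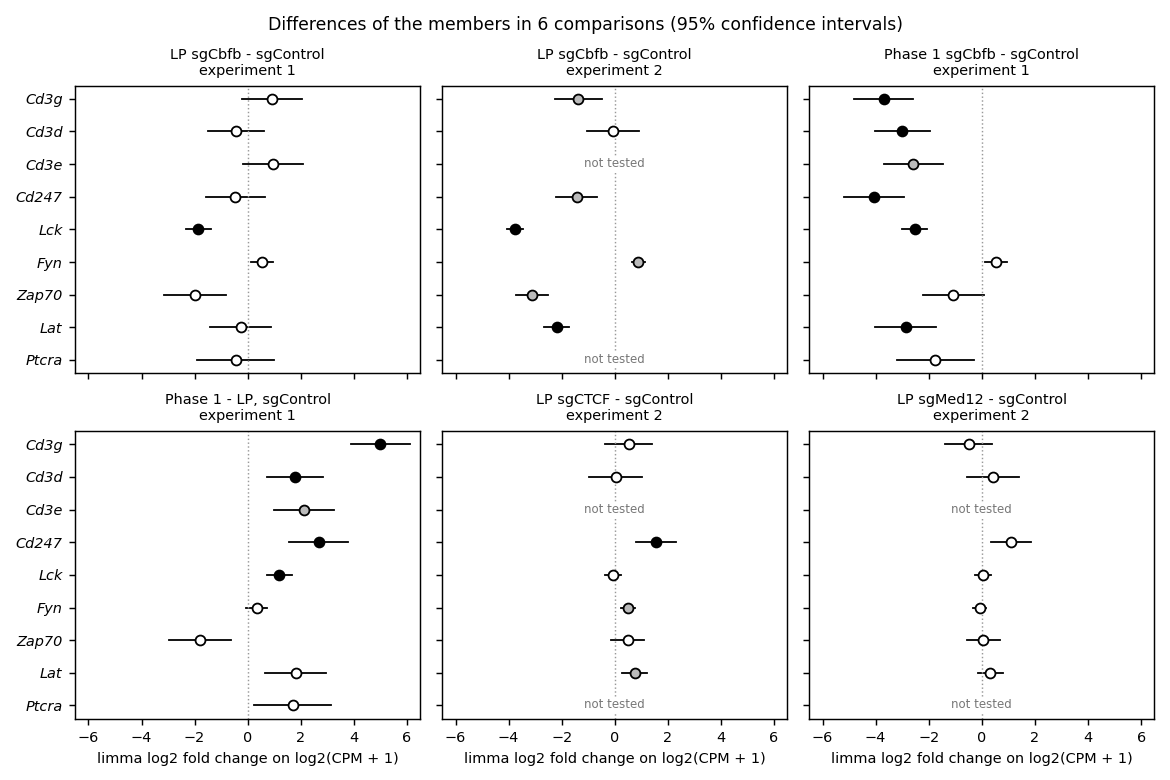
Limma log2 fold change on log2(CPM + 1) (x axis) of each gene (y axis) in 6 comparisons, with 95% confidence intervals as lines; black points were called, grey points passed the adjusted P alone and white points neither. *Lck* lies left of 0 in all 3 sgCbfb comparisons and at 0 with sgCTCF and sgMed12, and *Cd3g* and *Cd247* lie far left with sgCbfb in Phase 1 cells.

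The guides were also set against each other in the second experiment. Relative to sgCbfb, sgCTCF LPs held more *Lck* (log2 fold change 3.71, adjusted P = 6.4e-16), *Cd247* (2.98, adjusted P = 8.1e-07), *Zap70* (3.59, adjusted P = 1.1e-09) and *Lat* (2.93, adjusted P = 4.2e-10). These 4 of 7 genes were called higher, where 3.48% of all genes were, while *Cd3g* (1.89, adjusted P = 0.00184) and *Fyn* (-0.39, adjusted P = 0.0238) passed by adjusted P alone and *Cd3d* did not (0.08, adjusted P = 0.929). Relative to sgCbfb, sgMed12 LPs held more *Lck* (3.80, adjusted P = 4.5e-16), *Cd247* (2.54, adjusted P = 1.4e-05) and *Lat* (2.51, adjusted P = 1.3e-08), so 3 of 7 were called higher, where 1.76% of all genes were. *Zap70* (3.16, adjusted P = 1.9e-08) and *Fyn* (-0.97, adjusted P = 1.9e-06) passed there by adjusted P alone, and were called without the second sgMed12 library. *Cd3g* (0.88, adjusted P = 0.173) and *Cd3d* (0.49, adjusted P = 0.545) did not pass. The median log2 fold changes of the 7 genes were 2.93 and 2.51, and both medians over all genes were -0.02. Between sgMed12 and sgCTCF, limma and edgeR called 0 of 7 genes, and 2 had an unadjusted P under 0.05 (*Cd3g* and *Fyn*), where 4.01% of all genes were called in either direction; *Fyn* was lower with sgMed12 by adjusted P alone (-0.59 ± 0.12, adjusted P = 0.0015). The adjusted P was 0.0997 for *Cd3g*, 0.598 for *Cd3d*, 0.423 for *Cd247*, 0.701 for *Lck*, 0.328 for *Zap70* and 0.208 for *Lat*. The comparisons with sgControl share the same 3 sgControl libraries, and those with sgCbfb the same 3 sgCbfb libraries.

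Ordered by mean level within the first experiment, *Lck* went from Phase 1 sgControl (278 ± 24.8 CPM, SD, n = 3) to LP sgControl (121 ± 12.8), Phase 1 sgCbfb (47.6 ± 9.07) and LP sgCbfb (34.1 ± 12.6), with overlap between the last pair only. *Fyn* went from Phase 1 sgCbfb (125 ± 15.3) to LP sgCbfb (99.7 ± 14.6), Phase 1 sgControl (86.1 ± 11.5) and LP sgControl (69.5 ± 18.3), and every pair of neighbours overlapped. *Lat* stood apart only in Phase 1 sgControl (33.6 ± 12.5), since the other 3 groups, at 3.99 to 8.70 CPM, overlapped their neighbours. In the second experiment, *Lck* overlapped among sgMed12 (103 ± 5.19), sgControl (102 ± 14.7) and sgCTCF (97.0 ± 7.03) and stood apart in sgCbfb (6.55 ± 1.04). *Fyn* was highest in sgCbfb (139 ± 6.93), then in sgCTCF (107 ± 14.3), each apart from the next, and overlapped between sgControl (75.1 ± 9.48) and sgMed12 (70.6 ± 2.85). *Lat* was highest in sgCTCF (33.6 ± 1.04), overlapped between sgMed12 (25.0 ± 3.33) and sgControl (19.8 ± 2.99) and was lowest in sgCbfb (3.71 ± 1.70). *Cd247* overlapped between sgCTCF (14.4 ± 2.36) and sgMed12 (10.5 ± 3.16), with sgControl (4.43 ± 1.88) and sgCbfb (1.12 ± 0.991) each apart below.

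Over the 24 libraries, with each experiment centred on its mean, the expression of *Lck* was most like that of *5830411N06Rik* (Pearson r = 0.98), *Bcl11b* (0.96) and *Spn* (0.95), among 8622 genes over 10 CPM in a group of both experiments. *Cd247* and *Lat* were each other's closest gene (r = 0.89), followed by *Def6* and *Atp8b4* (both 0.85) for *Cd247* and by *Bace1* (0.87) and *Prss57* (0.85) for *Lat*. *Fyn* was closest to *Slfn2* (0.86), *Cacnb4* (0.84) and *Ccm2* (0.84), and its r with *Lck* was -0.66. These values describe libraries that fall into groups, and share the depth and group structure of the 2 experiments.

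Other genes of the proximal machinery moved in both directions. Of 15 listed adaptors and kinases near the receptor, 13 were tested in each experiment. Beside the shares of all genes called lower that are given above for each comparison, sgCbfb gave calls of higher levels for 1.1% of all genes in LPs of the first experiment, 2.67% in those of the second and 1.96% in Phase 1 cells. In Phase 1 cells 2 of the 13 fell with sgCbfb (1.56% of all genes), the TEC-family kinase *Txk* (46.6 to 8.82 CPM, limma log2 fold change -2.29 ± 0.54, adjusted P = 0.00966) and the LAT-binding adaptor gene *Grap2* (50.2 to 19.9 CPM, -1.30 ± 0.28, adjusted P = 0.0045), and none was called higher. In LPs of the second experiment the same pair fell, *Txk* from 14.7 to 1.51 CPM (-2.67 ± 0.24, adjusted P = 7.4e-09) and *Grap2* from 26.9 to 7.24 CPM (-1.79 ± 0.21, adjusted P = 6.1e-07), and 2 of the 13 rose (1.65% and 2.67% of all genes), with *Lcp2* foremost. *Lcp2*, encoding the adaptor SLP-76 that joins the LAT complex, was higher in LPs with sgCbfb, at 30.4 against 2.67 CPM in the first experiment (3.24 ± 0.36, adjusted P = 7.4e-06) and at 48.1 against 3.05 CPM in the second (3.63 ± 0.32, adjusted P = 5.1e-09). It rose too from LPs to Phase 1 cells with sgControl (to 41.8 CPM, 3.69 ± 0.36, adjusted P = 3.5e-07), as did *Trat1* (2.02 to 19.1 CPM, 2.89 ± 0.57, adjusted P = 0.0022). Its sgCbfb effect was lower in Phase 1 cells than in LPs by 2.55 ± 0.51 (adjusted P = 0.0105), as was that of *Plcg1* by 1.24 ± 0.25 (adjusted P = 0.0104). With sgCTCF, *Txk* rose from 14.7 to 84.7 CPM (2.45 ± 0.24, adjusted P = 2e-07) as the only call of the 13 (1.81% of all genes were called higher), and with sgMed12 none was called (1.03% in either direction), *Tespa1* passing by adjusted P alone. The list's medians were 0.14 and 0 with sgCbfb in LPs of the first and second experiment, -0.68 in Phase 1 cells, 0.87 between the stages, 0.32 with sgCTCF and 0.31 with sgMed12.

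**Figure D4:**
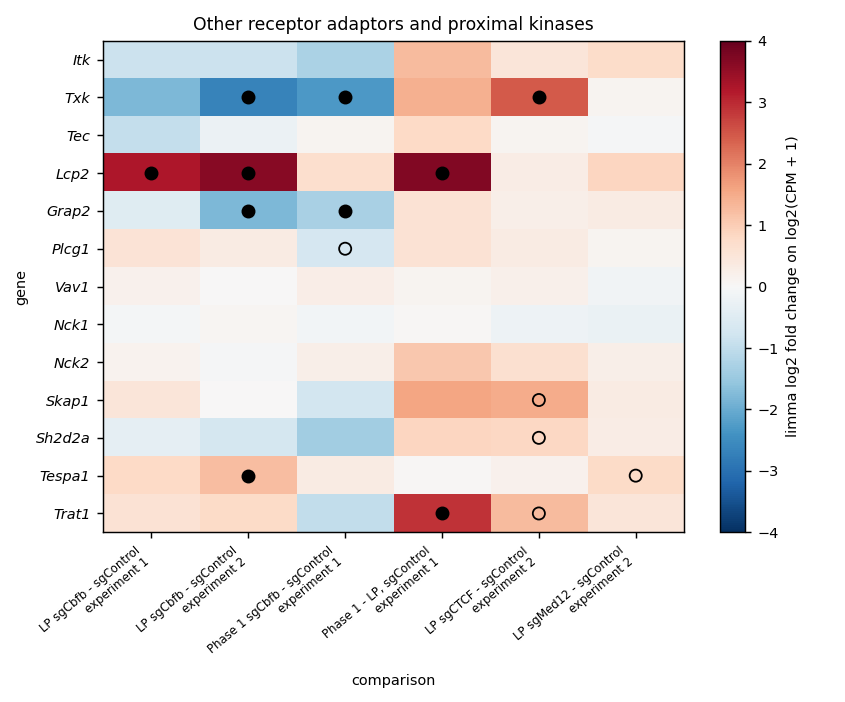
Limma log2 fold change on log2(CPM + 1), by colour, of 13 further receptor adaptors and kinases (rows) in 6 comparisons (columns); filled circles were called and open circles passed the adjusted P alone. *Lcp2* is red with sgCbfb in LPs of both experiments and between stages, and *Txk* and *Grap2* are blue in the second experiment's LPs and in Phase 1 cells with sgCbfb.

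Genes around the pathway were counted in the same way, beside the same shares of all genes. The lists are short, so that 1 call weighs heavily in each. Of the coreceptors and costimulators, *Cd28* rose with sgCbfb in the first experiment, in LPs (6.75 to 20.6 CPM, limma adjusted P = 0.008) and in Phase 1 cells (14.9 to 56.1 CPM, adjusted P = 0.00077), as the only call of 5 tested. In the second experiment it was at 9.25 to 19.0 CPM with sgControl and at 16.6 to 23.6 CPM with sgCbfb, which overlapped, and did not pass. *Cd2*, an adhesion receptor, rose with sgCTCF, 1 of 4 tested (15.8 to 57.6 CPM, adjusted P = 9.2e-06). Among 17 negative regulators tested in Phase 1 cells, where 1.56% of all genes were called lower and 1.96% higher, 2 fell with sgCbfb, *Ubash3a* (50.0 to 20.4 CPM, adjusted P = 0.00469) and *Sla2* (41.7 to 18.0 CPM, adjusted P = 0.0146), and *Ubash3b* rose (20.4 to 47.9 CPM, adjusted P = 0.00736). *Sla2* was also the 1 negative regulator called in the second experiment with sgCbfb (45.7 to 19.1 CPM, adjusted P = 2.8e-06). Of 11 downstream effectors tested in the first experiment and 10 in the second, the transcription factor gene *Nfatc2* rose with sgCbfb in Phase 1 cells (5.81 to 23.1 CPM, adjusted P = 0.0125) and in LPs of the second experiment (5.12 to 13.2 CPM, adjusted P = 0.00489). *Rasgrp1*, a Ras activator, rose from LPs to Phase 1 cells (1.83 to 20.1 CPM, adjusted P = 0.00018). With sgCTCF, 2 of the 10 downstream effectors were called higher, where 1.81% of all genes were. Of 7 tested B-cell receptor counterparts, *Lyn* fell with sgCbfb in LPs of the first experiment (160 to 77.4 CPM, adjusted P = 0.00132) and *Blnk* rose with sgCTCF (0.633 to 13.7 CPM, adjusted P = 1.3e-06). Of 7 other Src-family kinases and adaptors with tyrosine motifs, *Src* rose with sgCTCF (2.84 to 10.4 CPM, adjusted P = 0.0039), and none was called with sgCbfb in either stage.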

How the data were processed

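The 24 libraries were made with QuantSeq 3′ FWD from sorted cells, read as 75-base single reads. Per the labels and the study's methods, the authors trimmed reads with fastp, aligned them to mm10 with STAR and scaled values to 1000000 per library; the counter, annotation and strand setting are not given in the sources used here. The deposited values are named TPM but are CPM without length scaling: each library's values summed to 999991 to 999994 and at least 99.99% of them were whole multiples of 1 read within 0.1, so reads per library were recovered. A column with the authors' mean of sgControl was not used, and 1 final line without a gene ID was left out. The labels give only replicate numbers, while the methods speak of biologically independent replicates.

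Values were tested as log2(CPM + 1) with limma 3.58.1 (R 4.3.3, trended moderated variances, 4 groups per experiment in 1 fit, two-sided), over genes reaching 1 CPM in 3 or more libraries of the experiment (13239 and 13177 genes; 9 and 7 of the genes described), with Benjamini-Hochberg adjustment. Fold changes on this scale understate changes of low genes. Calls also needed the level and fold thresholds of the study's methods, and for the interaction only the level in any group. Experiments were never tested against each other. Recovered reads were tested with edgeR 4.0.16 (quasi-likelihood) as an alternative. Ratios of pooled counts with 10 reads or fewer in a group carry 95% exact intervals. Scripts were tested on simulated data. The 9 genes were named in every comparison, and of each other list at most the 3 called genes with the largest fold change. Genes and lists were chosen with earlier results of these data known. Alternatives were pseudocounts of 0.1 and 5, no filter, a filter at 10 CPM, other scaling, no variance trend, only the groups compared, a replicate block and each library left out.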

Additional observations from a re-analysis of the deposited data

Results flagged for a closer look

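A difference between the stages in the effect of the sgCbfb guides led to a closer look at 3 genes, by the limma interaction test. The log2 effect in Phase 1 minus that in LPs was -4.61 for *Cd3g* (adjusted P = 0.00175), -3.59 for *Cd247* (adjusted P = 0.0157) and -3.53 for *Cd3e* (adjusted P = 0.0186). *Cd3g* and *Cd3e* had 2 and 3 reads in the LP sgControl libraries, so their LP effect was limited by depth.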

How the results depend on the processing

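Of 1765 alternative values for 87 comparisons of single genes, 1655 kept their direction and side of the threshold, 54 lost it, 29 gained it and 27 reversed. Counts of called genes moved by over 1.5 times as follows. The interaction gave 1 gene with a pseudocount of 0.1 (2 as reported; 1 to 3 on leaving out a library). Judged by adjusted P alone, sgCbfb LPs of the second experiment gave 6 (2; 2 to 3), sgCTCF 3 (1), sgMed12 against sgCbfb 5 (3; 2 to 5) and sgMed12 against sgCTCF 1 (0). A pseudocount of 0.1 gave 0 for sgCTCF and one of 5 gave 1 for sgMed12 against sgControl (0; 0 to 1). The cause was not tested.

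The reversals all concerned differences that did not pass (adjusted P 0.641 to 1). On leaving out 1 library, log2 values ran in the first experiment from -0.793 to 0.403 for *Lat* with sgCbfb in LPs and from -0.155 to 0.227 for the *Fyn* interaction. In the second experiment *Cd3d* ran from -0.450 to 0.425 with sgCbfb, -0.477 to 0.509 with sgCTCF, -0.421 to 0.492 for sgCTCF against sgCbfb and -0.006 to 0.906 for sgMed12 against sgCTCF. *Lck* ran from -0.154 to 0.050 with sgCTCF and, with sgMed12, from -0.063 to 0.141, *Fyn* from -0.144 to 0.017 and *Zap70* from -0.114 to 0.204. A pseudocount of 0.1 turned the *Zap70* interaction (-0.222) and, for *Cd3d*, the sgCbfb difference (0.388) and that of sgCTCF against sgCbfb (-0.347). A pseudocount of 5 turned the *Fyn* interaction (0.001), and edgeR turned *Lat* in LPs of the first experiment (0.059) and the *Zap70* interaction (-0.124).

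Libraries with the same replicate number deviated together only weakly: the median r was 0.0409 (-0.0381 to 0.14) in experiment 1 and 0.0747 (-0.13 to 0.216) in experiment 2. Libraries with different numbers had lower medians, -0.0206 (-0.122 to 0.075) and -0.0257 (-0.223 to 0.143), and the ranges overlapped. The numbers were not taken to pair samples. A fit with the replicate number as a block gave 5 genes for sgCbfb in Phase 1 cells and moved no count by over 1.5 times. Low read counts limit *Cd3e*, *Ptcra* and, in LPs, *Cd3g*, which lay near or under the level of 3 reads. *Cd3e* had reads in every LP library of the first experiment and none in the second, which was read more deeply. The cause of that difference was not tested.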
